A study of Rattus norvegicus with 6 samples.

Results

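The genes described here are 7 genes linked to the meninges and to the barrier they form around the brain: Slc22a6, Slc6a13, Gjb2, Aox3, Mfap4, Fndc1 and Mrc1. Each has 1 probe set with 1 annotated symbol on the array, and the 7 are among 10947 genes that passed a filter on dim probe sets, out of 28826 probe sets in all. They were chosen by measured values of these same arrays: 6 of them had stood out for a higher value at 14 d than at 3 d after stroke, and Mrc1 for a higher value at 3 d than in naive tissue. Their changes over time are therefore given as values with no test, and only the difference between ages, which did not choose them, was tested.

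The study profiled RNA of male Sprague-Dawley rats on 6 Affymetrix whole-transcript arrays, 1 for each combination of age (aged or young) and condition. Aged rats were 19 to 20 months old and young rats 3 to 4 months when a hook lifted their middle cerebral artery for a time to cause a stroke, and tissue around the infarct was taken at 3 d or at 14 d. Naive rats, aged 18 to 20 months or 3 to 5 months, had no stroke, and the labels call their tissue healthy brain without naming its region. No array came from sham-operated rats. In each comparison against naive, stroke, surgery, brain region and the share of meninges in the piece therefore cannot be told apart. Each array carried 1 RNA pool, from 23 aged or 19 young rats at each time after stroke and from 15 naive rats of each age, so differences between single rats are not visible. The values are on a log2 scale that was inferred from their range, with array medians between 7.09 and 7.15. Correlations between arrays over all probe sets lay between 0.962 and 0.995 (Pearson's r).

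The leptomeninges are the thin inner membranes that wrap the brain. Their fibroblasts lay down collagen and microfibrils, and the arachnoid barrier cells among them seal the space around the brain with tight and gap junctions and move solutes with transporters. Macrophages that live in these membranes and along penetrating vessels carry the mannose receptor. After an injury, fibroblasts of the meninges and of vessel walls are known to populate the scar.

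Promoter windows of 4 of the 7 genes were in the RefSeq table used (build GRCr8, 250 bases before to 50 after the annotated start). They are printed because 3 of these genes had a like late course after stroke and Mrc1 an early one. The windows are chr15:35381904-35382203 on the minus strand for Gjb2, chr9:67158750-67159049 on the plus strand for Aox3, chr1:49686606-49686905 on the plus strand for Fndc1 (the upstream one of its 2 windows) and chr17:82157475-82157774 on the plus strand for Mrc1. Capitals mark a match on either strand to a GC box (GGGCGG) or a CCAAT box (CCAAT).
Gjb2: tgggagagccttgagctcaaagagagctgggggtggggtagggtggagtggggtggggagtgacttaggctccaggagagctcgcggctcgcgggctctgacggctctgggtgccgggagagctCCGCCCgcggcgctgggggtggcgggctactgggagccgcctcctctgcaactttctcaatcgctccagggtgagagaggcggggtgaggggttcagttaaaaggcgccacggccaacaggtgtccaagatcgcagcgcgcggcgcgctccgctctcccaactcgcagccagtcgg
Aox3: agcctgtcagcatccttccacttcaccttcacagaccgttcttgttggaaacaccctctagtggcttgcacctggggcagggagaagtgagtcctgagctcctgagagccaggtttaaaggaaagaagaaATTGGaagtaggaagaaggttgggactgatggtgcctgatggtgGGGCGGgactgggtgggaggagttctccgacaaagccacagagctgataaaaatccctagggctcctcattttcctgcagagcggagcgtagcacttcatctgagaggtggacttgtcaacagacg
Fndc1: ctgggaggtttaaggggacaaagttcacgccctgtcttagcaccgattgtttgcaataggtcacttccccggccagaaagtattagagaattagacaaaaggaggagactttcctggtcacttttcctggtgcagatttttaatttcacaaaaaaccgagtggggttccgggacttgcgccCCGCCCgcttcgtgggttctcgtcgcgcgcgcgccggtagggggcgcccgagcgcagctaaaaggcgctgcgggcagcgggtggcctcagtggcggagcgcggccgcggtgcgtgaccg
Mrc1: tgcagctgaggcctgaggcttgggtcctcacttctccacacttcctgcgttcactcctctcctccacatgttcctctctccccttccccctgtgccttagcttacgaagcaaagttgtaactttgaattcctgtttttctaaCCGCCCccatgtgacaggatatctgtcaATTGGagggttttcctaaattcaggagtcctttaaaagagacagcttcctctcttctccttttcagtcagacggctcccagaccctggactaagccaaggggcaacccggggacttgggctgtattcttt
All 4 windows held a GC box, which 33.1% of the 33469 windows in the table hold. The CCAAT box was in the windows of Aox3 and Mrc1 and is in 37.5% of all windows. None of the 4 held TATAAA (in 14.2% of all windows), the forkhead motif TGTTTAC (3.78%), the TEAD motif CATTCC (14.2%), the interferon response motif (3.92%) or the STAT motif TTCNNNGAA (8.87%). These are matches of letters in short windows and say nothing of binding.

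At 14 d after stroke all 7 genes stood at least 2-fold above the naive array of the same age, in aged and in young rats alike. For 6 of them most of the difference arose after 3 d, whereas Mrc1, the macrophage gene, was already higher at 3 d. The fitted change of the 7 genes had a median of 0.54 at 3 d against naive, 1.88 at 14 d against naive and 1.68 at 14 d against 3 d, where the medians of all genes were -0.03, -0.06 and -0.03 (log2). Tissue pieces were profiled whole, so more cells of a type and more RNA per cell cannot be told apart.

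The transporters come first. Slc22a6 encodes the organic anion transporter OAT1. In naive tissue Slc22a6 measured 7.07 in aged and 7.45 in young rats, at 3 d it measured 7.15 in aged and 7.31 in young rats, and at 14 d it measured 8.87 in aged and 8.83 in young rats. Only the 14 d arrays were high, and the 3 d and naive arrays overlapped. Its fitted change from naive was -0.03 ± 0.14 at 3 d and 1.59 ± 0.14 at 14 d (log2 ± SE, 2 arrays per time), and the value at 14 d was 3.01-fold the naive one. Slc6a13 encodes GAT2, a transporter of GABA and taurine found in the leptomeninges. Slc6a13 measured 8.02 in naive tissue of either age, 8.60 in aged and 8.36 in young rats at 3 d, and 10.37 in aged and 9.44 in young rats at 14 d. The arrays of the 3 conditions did not overlap, and the aged 14 d array was highest. Slc6a13 was 5.08-fold above naive at 14 d in aged rats and 2.67-fold in young rats.

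Gjb2 encodes connexin 26, a gap junction protein of meningeal cells. In naive tissue Gjb2 measured 7.64 in aged and 7.65 in young rats, at 3 d it measured 7.40 in aged and 7.73 in young rats, and at 14 d it measured 9.18 in aged and 9.59 in young rats. The 3 d arrays lay on either side of the naive ones, and both 14 d arrays were above all others. Its fitted change was -0.08 ± 0.14 at 3 d and 1.74 ± 0.14 at 14 d against naive, or 3.34-fold at 14 d, and 1.82 ± 0.14 at 14 d against 3 d. That last change ranked 5 among all genes tested, a rank that belongs to how Gjb2 was chosen. Aox3 encodes an aldehyde oxidase, an enzyme that oxidises aldehydes and aromatic heterocycles. Aox3 measured 5.86 in aged and 5.67 in young naive rats, 6.26 in aged and 6.60 in young rats at 3 d, and 8.36 in aged and 7.99 in young rats at 14 d. It was higher at each later time, and the arrays of the 3 conditions did not overlap. Its naive values lay at percentile 27.7 of the aged array and 24.8 of the young array, near the dim end, so the size of its 5.31-fold difference at 14 d is uncertain. Aox3 alone of the 7 passed the filter only through stroke arrays, and the other 6 passed it on every array. Of these, Fndc1 lay just above the cut-off in naive tissue, at percentile 41.2 of the aged and 41.3 of the young array. Mrc1 lay at percentile 48 of the aged and 41.8 of the young naive array. The sizes of their changes against naive are uncertain too.

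Both matrix genes were somewhat higher at 3 d and much higher at 14 d. Mfap4 encodes a glycoprotein of elastic microfibrils. Mfap4 measured 7.57 in aged and 7.76 in young naive rats, 8.20 in aged and 8.55 in young rats at 3 d, and 10.26 in aged and 10.03 in young rats at 14 d. Its fitted change against naive was 0.71 ± 0.16 at 3 d and 2.48 ± 0.16 at 14 d, or 5.58-fold at 14 d. Fndc1 encodes a protein with fibronectin type III domains. Fndc1 measured 6.62 in aged and 6.61 in young naive rats, 7.13 in aged and 7.18 in young rats at 3 d, and 8.77 in aged and 8.90 in young rats at 14 d. For both genes the arrays of the 3 conditions did not overlap. Ages lay closest together for Fndc1, whose fitted change was 0.54 ± 0.12 at 3 d and 2.22 ± 0.12 at 14 d (4.66-fold at 14 d).

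Mrc1 encodes the mannose receptor CD206 of perivascular and meningeal macrophages. Mrc1 measured 6.99 in aged and 6.64 in young naive rats, 8.06 in aged and 8.84 in young rats at 3 d, and 8.54 in aged and 8.19 in young rats at 14 d. All 4 stroke arrays were above both naive arrays, and the 3 d and 14 d arrays overlapped. Against naive Mrc1 was 2.11-fold higher in aged and 4.59-fold higher in young rats at 3 d, and 2.94-fold higher in aged and 2.91-fold higher in young rats at 14 d. From 3 d to 14 d it changed by 0.48 in aged and by -0.66 in young rats, and the fitted change was -0.09 ± 0.26.

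**Figure D1:**
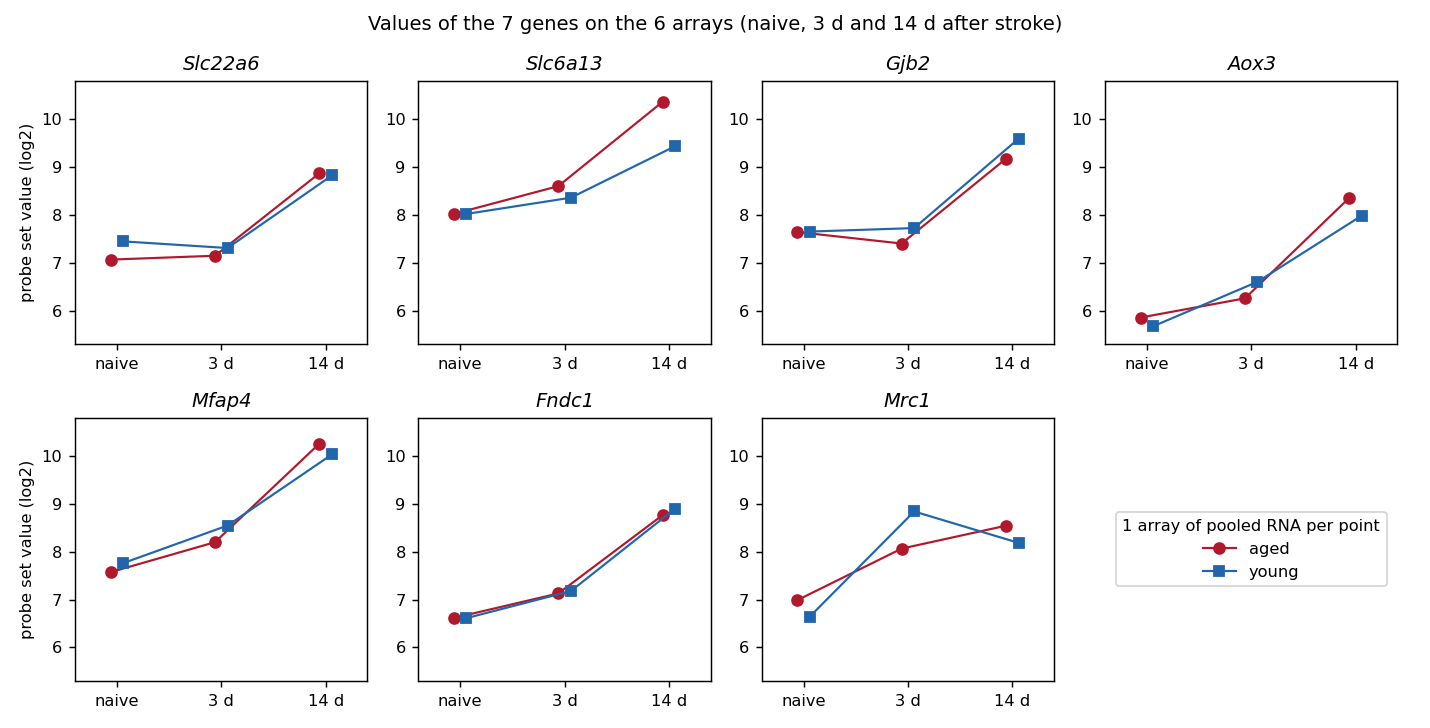
Values of each of the 7 genes (log2, vertical axis) on the naive, 3 d and 14 d arrays (horizontal axis), with aged rats as red circles and young rats as blue squares, 1 array of pooled RNA per point and no error bars because no group has replicates. In 6 panels both 14 d points lie above all others, and in the Mrc1 panel the highest point is the young 3 d array at 8.84.

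Set side by side, the genes fell into groups by shape. Each gene's 6 values were centred on their own mean, and the distance between 2 genes was the root mean square of their differences over the 6 arrays. Aox3 and Mfap4 were nearest to each other, at 0.12, followed by Mfap4 and Fndc1 at 0.18, Aox3 and Fndc1 at 0.19, and Slc22a6 and Gjb2 at 0.20. The last pair shared a flat course up to 3 d. Mrc1 was 0.74 to 0.90 away from each of the other 6, whereas those 6 were at most 0.48 apart. Against naive at 3 d, 5 of the 7 were higher in both ages, as were 36.8% of all genes, and Slc22a6 and Gjb2 changed in opposite directions in the 2 ages. Mrc1 was the only 1 of the 7 at least 2-fold higher in both ages at 3 d, a size that 4.91% of all genes reached. At 14 d against naive all 7 reached it, with 4.59% of all genes. At 14 d against 3 d, the comparison that chose most of the set, 6 of the 7 reached it, with 0.411% of all genes. Both 14 d arrays stood above all 4 others for 6 of the 7 and for 7.28% of all genes. From 3 d to 14 d the change was smaller in the aged than in the young pair for 2 of the 7, Gjb2 and Fndc1, and for 36.3% of all genes. Nothing is read from these distances, groups or shares, because the same arrays chose the genes. The gap between Mrc1 and the other 6 belongs to how they were chosen.

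**Figure D2:**
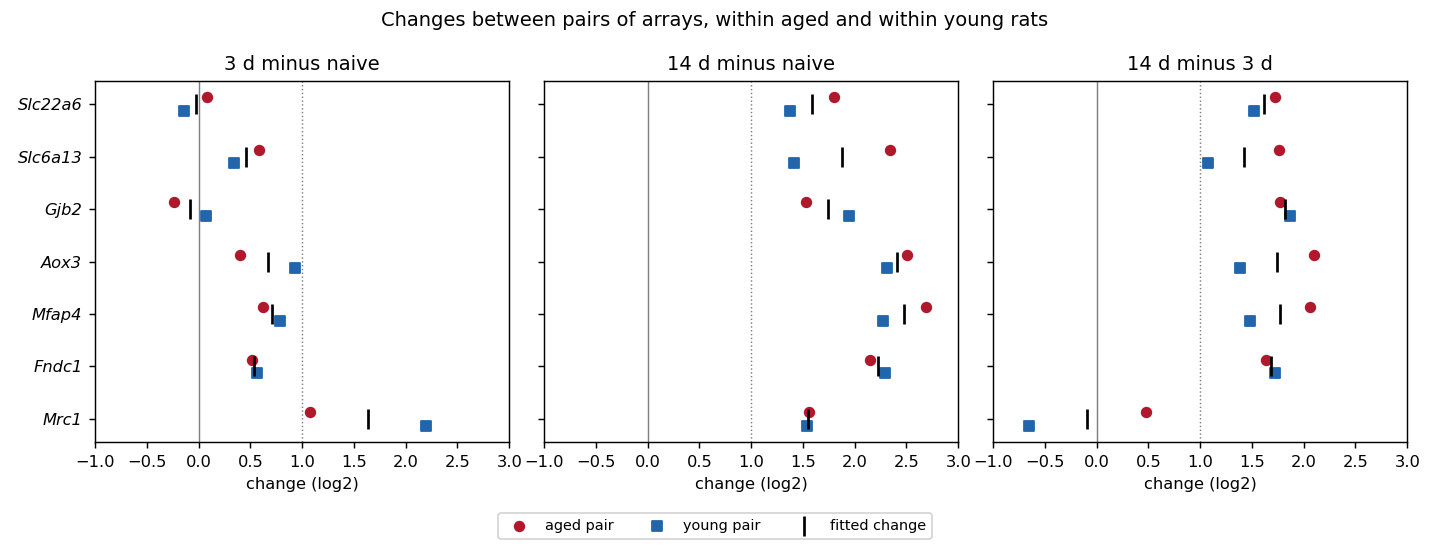
Change of each of the 7 genes (log2, horizontal axis) at 3 d against naive, 14 d against naive and 14 d against 3 d, with red circles for the aged pair of arrays, blue squares for the young pair and a black bar for the change fitted to both; the dotted line marks a 2-fold rise. At 14 d against naive every point lies right of the dotted line, between 1.38 and 2.69, and at 14 d against 3 d the Mrc1 points lie at 0.48 and -0.66.

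No difference between ages passed the test for any of the 7 genes. In limma's fit of age and time the aged minus young differences ran from -0.25 ± 0.11 for Gjb2 to 0.39 ± 0.17 for Slc6a13 (log2 ± SE, 3 arrays per age), with Benjamini-Hochberg adjusted p from 0.637 (Slc6a13) to 0.981 (Mrc1). Slc6a13 was equal in the naive arrays and higher in aged rats at 3 d and 14 d, and Gjb2 was lower in aged rats at 3 of 3 times, as were 18.4% of all genes. By the same test 0% of all genes were called either way. At an unadjusted p under 0.05 the fit gave 852 genes, or 7.78%, and 0 of the 7, and with trended and robust variances it called 1 gene after adjustment. This test asks for a difference that is equal at all 3 times. A difference that varies between times adds to its error, so the test is weak for genes whose ages part at single times.

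Single times showed larger differences, which 1 array per group does not allow to be tested. At 14 d Slc6a13 was 0.93 higher in aged than in young rats, at percentile 98.5 of the same difference over all genes, while at naive it differed by 0.00. At 3 d Mrc1 was 0.78 lower in aged than in young rats (a difference of -0.78), at percentile 0.3, whereas it was higher in aged rats by 0.34 in naive tissue and by 0.36 at 14 d. In naive tissue Slc22a6 differed by -0.38 (aged minus young), at percentile 1.2. The general macrophage and microglia list described further on also stood higher in aged than in young rats at 14 d, with a mean of 10.40 in aged against 9.80 in young rats, but by little at 3 d, with 10.06 in aged against 10.05 in young rats (log2). Of all genes 62.4% were lower in aged rats at 3 d, 51.1% in naive tissue and 47.9% at 14 d. Of the 7 genes 6 were lower in aged rats at 3 d, 3 in naive tissue and 2 at 14 d.

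**Figure D3:**
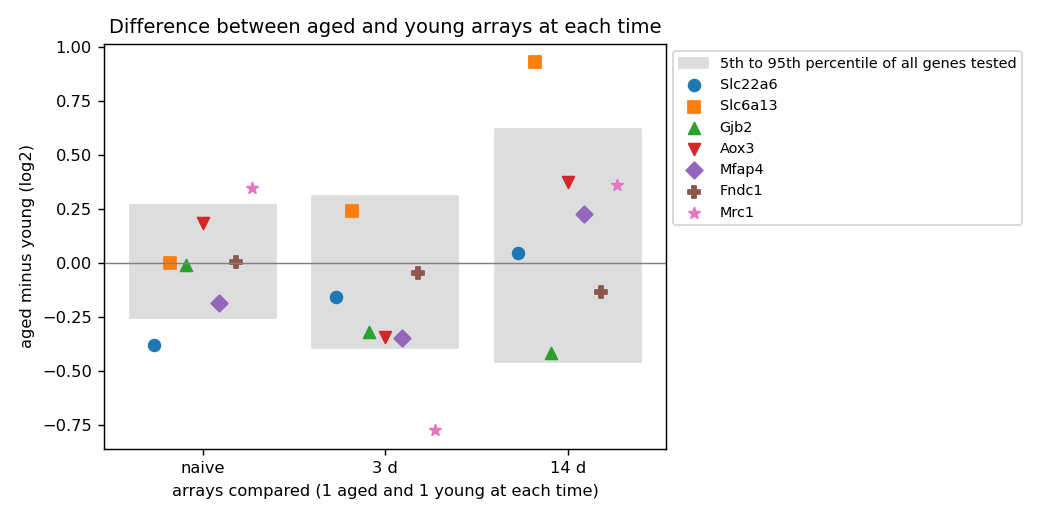
Aged minus young difference (log2, vertical axis) of the 7 genes in naive tissue, at 3 d and at 14 d, 1 aged and 1 young array each; the grey band spans the 5th to the 95th percentile of all 10947 genes tested. Mrc1 at 3 d (-0.78) and Slc6a13 at 14 d (0.93) lie farthest outside the band.

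Beside the 7 genes, 6 lists of other genes linked to the same roles were looked at, 89 in all, of which 70 were tested. The lists were drawn up with earlier results of these data known. Their counts and p-values therefore describe the listed genes and are no support for what the 7 genes stand for. At 14 d against 3 d, 21 of the 70 rose and 1 fell at an adjusted p under 0.05 (limma), or 30% and 1.43%, against 1.34% and 1.82% of all genes. The sizes of both splits depend on single arrays. Among the listed genes more were higher than lower in every alternative, whereas the balance of all genes changed direction in some. Of the listed genes 10 were higher and 7 lower without the aged 3 d array, 19 higher and 5 lower without the aged 14 d array, 13 higher and 1 lower without the aged or without the young naive array, and 29 higher and 5 lower with trended and robust variances. Of all genes 147 were higher and 199 lower with all arrays, and 218 higher and 281 lower with trended and robust variances. That balance turned to 370 higher and 206 lower without the young 14 d array and to 168 higher and 111 lower without the young 3 d array, and was 70 higher and 187 lower without the aged 3 d array. At 14 d against naive 47 rose, or 67.1%, against 13.6% of all genes, and 0 fell, against 11.4%; no listed gene was lower at an unadjusted p under 0.05 either, and the median change was 0.80. At 3 d against naive 35 rose and 2 fell, or 50% and 2.86%, against 14.4% and 7.87%. Of the 70 genes 59 passed the filter on a naive array. Among these, 18 rose from 3 d to 14 d, and against naive 39 rose at 14 d and 30 at 3 d. No share was counted among all genes that passed in this way, so these counts have no background here. The other listed genes passed only on stroke arrays, among them Aox1, Cd163, Cldn1, Crabp2, Lum, Mfap2 and Siglec1. The sizes of their changes against naive are therefore uncertain. In either direction 22.2% of all genes were called at 3 d against naive, 25% at 14 d against naive and 3.16% at 14 d against 3 d. The number of listed genes called in either direction at 14 d against 3 d was 14 without the aged or without the young naive array (22 with all arrays). At 3 d against naive it was 23 without the young naive array and 24 without the aged naive or the young 3 d array (37 with all), and at 14 d against naive it was 31 without the aged naive array (47 with all). The share of all genes called fell along with these, to 10.4%, 6.86% and 9.65% at 3 d and to 7.02% at 14 d. With array medians centred, 1336 of all genes were higher and 1686 lower at 14 d against naive, where the deposited values gave 1491 and 1243.

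Among 12 barrier transporters, 3 rose from 3 d to 14 d: the sulfate transporter Slc13a4 (1.03 ± 0.13, limma's adjusted p = 0.00554), the dicarboxylate transporter Slc13a3 (0.80 ± 0.13) and the organic anion transporter Slc22a8 (0.65 ± 0.13), the relative of Slc22a6 known as OAT3. Slc13a4 measured 8.61 in aged and 8.63 in young naive rats, 8.33 in aged and 8.51 in young rats at 3 d, and 9.52 in aged and 9.39 in young rats at 14 d, a late course like that of Slc22a6. Against naive, 4 of the 12 were higher at 3 d and 7 at 14 d. Of 8 junction genes 2 were higher and 1 lower than naive at 3 d, and 4 were higher at 14 d. Gjb6, the connexin 30 gene next in kind to Gjb2, rose from 3 d to 14 d by 0.78 ± 0.12, after a fall of 0.59 at 3 d, and ended 0.20 from its naive level (limma's adjusted p = 0.281). The claudins Cldn1 and Cldn11 were higher than naive at 14 d, by 0.89 ± 0.16 and 0.65 ± 0.12, but did not pass at 14 d against 3 d (0.64 and 0.34, adjusted p = 0.0895 and 0.272 with limma). Tissue was profiled whole, so which cells held these junction transcripts was not tested.

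Retinoid and other enzyme genes of the meninges had 4 of 10 higher at 14 d than at 3 d. Aldh1a2, the retinoic acid-making dehydrogenase of meningeal fibroblasts, rose by 1.03 ± 0.17 from 3 d to 14 d and stood 2.19 ± 0.17 above naive at 14 d. Ptgds, the prostaglandin D synthase secreted by the leptomeninges, rose by 0.86 ± 0.12. The other 2, named after their values were seen, were Aox1 (0.84), the relative of Aox3, and Cp, ceruloplasmin (0.81). Crabp2, a carrier of retinoic acid, was 1.80 ± 0.21 above naive at 14 d and did not pass against 3 d (0.92, adjusted p = 0.0781 with limma). Against naive, 5 of the 10 rose and 1 fell at 3 d, and 6 rose at 14 d. The 1 that fell was Aldh1a1, named after its value was seen (-0.44).

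Among 14 transcription factors and signals of meningeal fibroblasts, 6 rose from 3 d to 14 d and 11 stood above naive at 14 d, against 6 at 3 d. Igf2, a growth factor made by the leptomeninges, measured 8.88 in aged and 9.15 in young naive rats, 8.64 in aged and 8.80 in young rats at 3 d, and 11.64 in aged and 11.47 in young rats at 14 d. Its fitted change at 3 d was -0.29 (limma's adjusted p = 0.180), and its change from 3 d to 14 d, 2.83 ± 0.14, was larger than that of any of the 7 genes. Bmp6, a bone morphogenetic protein, rose by 1.05 ± 0.14 and Tbx18, a transcription factor of mural and meningeal cells, by 1.02 ± 0.21 from 3 d to 14 d. The matrix list had 7 of 18 genes higher at 14 d than at 3 d, 14 above naive at 3 d and 15 at 14 d. Mfap2, a microfibril protein, rose late (1.50 ± 0.18), as did the proteoglycans Lum (1.40 ± 0.18) and Ogn (1.33 ± 0.13). Lum was already 2.10 ± 0.18 above naive at 3 d, and Ogn changed by 0.18 then (adjusted p = 0.322 with limma). Lum was dim in naive tissue, at 5.33 in aged and 5.58 in young rats, so the size of its rise is uncertain.

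Of 8 border macrophage genes tested, 4 rose at 3 d and 4 stood above naive at 14 d, and 1 was lower at 14 d than at 3 d. Folr2, a folate receptor, was 2.95 ± 0.29 above naive at 3 d and 1.64 ± 0.29 at 14 d, and Cd163, the haemoglobin scavenger receptor, 1.31 ± 0.16 and 0.59 ± 0.16. Lyve1, a hyaluronan receptor, rose by 1.37 ± 0.13 at 3 d and fell by 0.84 from 3 d to 14 d (limma's adjusted p = 0.0156). The fourth to rise at 3 d, named after its value was seen, was Siglec1, a sialic acid-binding lectin, at 2.35 above naive at 3 d and 2.44 at 14 d. The course within this list was thus mixed, and it was not tested against the other lists. Mrc1, like these genes, was higher at 3 d, and its fitted value at 14 d was 1.55 above naive, against 1.64 at 3 d. General macrophage and microglia genes rose in 10 of 10 at both times, with Cd68, a lysosomal protein, at 3.55 and 4.14 and Lyz2, lysozyme, at 2.83 and 2.25 at 3 d and 14 d. Cd14, a receptor for bacterial lipopolysaccharide, was 2.32 and 1.34 above naive and changed by -0.98 from 3 d to 14 d (adjusted p = 0.157 with limma). Its naive values were dim, at 6.44 in aged and 5.94 in young rats. The mean of that list in naive tissue was 8.22 in aged and 7.92 in young rats, at 3 d it was 10.06 in aged and 10.05 in young rats, and at 14 d 10.40 in aged and 9.80 in young rats. Its part in the values of Mrc1 was not tested.

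Other tissues that could lie in the pieces moved in part with the 7 genes. Of 12 choroid plexus genes 6 rose from 3 d to 14 d, among them Kcnj13 (1.42 ± 0.16), a potassium channel, Clic6 (1.26 ± 0.24) and Kl (1.17 ± 0.24), the klotho gene, and 8 had fallen at 3 d. At 14 d only 1 of the 12 was above naive, Aqp1 (0.67), named after its value was seen, and the median was 0.03. The 7 genes, chosen by values of these same arrays, stood at 1.55 to 2.48, so nothing is read from the contrast. The mean of the 12 was 8.66 in aged and 8.36 in young naive rats, 7.59 in aged and 7.89 in young rats at 3 d, and 8.64 in aged and 8.54 in young rats at 14 d. Slc22a6 and Slc22a8 are also known from choroid plexus, and the part of that tissue in their change between 3 d and 14 d was not tested. Its part in the late rise of other listed genes, Slc13a4, Igf2 and Ptgds among them, was not tested either. Endothelial genes were higher at 3 d in 7 of 10 and at 14 d in 4, and Esam, an endothelial adhesion molecule, fell by 0.63 from 3 d to 14 d. Pecam1 and Tie1, both of endothelial cells, changed by -0.49 and -0.45 (adjusted p = 0.103 and 0.162 with limma). Of 11 pericyte and smooth muscle genes 5 were above naive at 3 d and 3 at 14 d, and between the 2 times Tagln, transgelin, fell by 2.11 while Vtn, vitronectin, rose by 1.03. Des, desmin, changed by -0.78 (adjusted p = 0.149 with limma). Of 9 muscle and bone genes 4 were bright enough to test, and Bglap, Alpl and Ckm changed by 0.28, -0.16 and 0.16 from 3 d to 14 d, none past the threshold (adjusted p = 0.604, 0.728 and 0.842 with limma). Of 7 neuronal genes 2 were lower than naive at 3 d and 5 at 14 d, of 5 astrocyte genes 1 was higher at 3 d and 3 at 14 d, and of 4 oligodendrocyte genes 1 was lower at each time. At 14 d against naive Gad1 and Rbfox3, of inhibitory neurons and of neurons in general, fell by 0.78 and 0.71, and Slc17a7, the vesicular glutamate transporter of excitatory neurons, changed by -0.38 (adjusted p = 0.084 with limma). Aldh1l1, Aqp4 and Gfap of astrocytes rose by 0.43, 0.56 and 1.62 in that comparison, and Gfap stood 1.86 above naive at 3 d. Mog, a myelin glycoprotein, fell by 0.42 and Mobp, another myelin gene, changed by -0.23 (adjusted p = 0.215 with limma). The labelled tissue showed its defining markers, here named outside the rule for Snap25, with Snap25 at 12.11 to 12.78, Gfap at 9.96 to 12.41 and Mbp at 11.86 to 12.19 over the 6 arrays. None of the marker lists can be read as 0, since array values have no true zero.

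Genes with a like course were sought over the 6 arrays by the same distance. Nearest to the mean of the 7 were Omd (osteomodulin, a matrix proteoglycan, 0.10), Oas1b (an interferon-induced oligoadenylate synthetase, 0.10), Mfap2 (0.11), Fkbp9 (0.14), Fmo1 (a flavin monooxygenase, 0.14), Isg15 (an interferon-induced ubiquitin-like modifier, 0.15), Cpxm1 (0.16), Col3a1 (a fibrillar collagen, 0.16), Snai2 (a transcription factor, 0.18) and Sned1 (0.18), against a median of 0.88 over all genes. That mean blends the late courses with the early one of Mrc1. Of the 7 genes Fndc1 lay closest to it, at 0.16, and Mrc1 farthest, at 0.66. Omd, Oas1b, Mfap2, Fkbp9, Fmo1 and Isg15 lay nearer to the mean than any of the 7, so they match no single member as closely. Single members had their own neighbours. Slc22a6 and Gjb2 were nearest to the carboxypeptidase-like genes Cpz and Cpxm1, at 0.15 to 0.26. Fndc1 was nearest to Rsad2, an antiviral interferon-induced gene, at 0.10, and Mfap4 likewise at 0.18, and Aox3 was nearest to Irf7, an interferon regulatory factor, at 0.17. Slc6a13 was nearest to Cd22, a B cell and microglia receptor, and Ifit2, at 0.15 and 0.16. Mrc1 was nearest to the inflammasome adaptor Pycard (0.12) and to Stom (stomatin, 0.14), both of which rose at 3 d, by 1.53 ± 0.20 and 1.74 ± 0.18. Oas1b shares sequence with its close relatives, so its single value is uncertain.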

How the data were processed

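RNA was measured in 6 pools of rat brain tissue. The values that the authors deposited, one for a probe set on an array, were read as log2, a base taken from how far they range since none is stated. The submitters' processing notes name affy and R 2.14.0. How background, summarisation, normalization and genome build were handled is not given in the sources. Near-equal array medians mean that any change in total RNA is removed.

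Of 28826 probe sets 15209 had 1 symbol, 306 several and 13311 none here; 15178 matched RefSeq (GRCr8) by Entrez ID and 0 symbols changed. A probe set stayed if any array had it at or above that array's 40th percentile, and each gene took its probe set of highest mean, which left 10947 genes.

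An additive model of time and age was fitted to all 6 arrays with limma 3.58.1 (R 4.3.3). It had 2 residual degrees of freedom, with 5.56 from the prior, and p-values were adjusted over all genes (Benjamini-Hochberg, 0.05). Young and aged arrays serve as repeats of a time effect, so p-values measure the spread between these pools only. Any difference in time course between the ages is part of that spread. The functions were tested on simulated arrays.

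The 7 genes and all lists were chosen with earlier results of these data known. Of 89 companion genes 77 were on the array and 70 passed the filter. Named from each list were the 3 genes with the largest change from 3 d to 14 d, plus the 10 genes nearest the mean course of the 7 and the 2 nearest each one; locus-style names were passed over. Alternatives were other scalings, filters, probe set rules, variance models, age left out, and each array left out. The number of arrays limits the precision.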

Additional observations from a re-analysis of the deposited data

Results flagged for a closer look

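Of the 7 genes, 3 had changes of opposite sign in aged and young rats, each from 1 pair of arrays per age, and none of these differences was tested. Mrc1 changed from 3 d to 14 d by 0.48 in aged and by -0.66 in young rats, a difference of 1.14. Gjb2 changed at 3 d against naive by -0.24 in aged and by 0.07 in young rats, a difference of -0.31. Slc22a6 changed at 3 d against naive by 0.08 in aged and by -0.14 in young rats, a difference of 0.22.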

How the results depend on the processing

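Only 6 alternatives could move the change of the 7 genes at 14 d against naive: both scalings, and leaving out a naive or a 14 d array. Under these it lay between 1.26 and 2.73 (log2), and the filters, variance model, probe set rule, age term and 3 d arrays leave it as it is. The gene with the largest change was Mfap4 with all arrays, Aox3 without the aged naive array (2.49) and Fndc1 without the aged 14 d array (2.28). Their median at 3 d against naive was 0.50 with array medians centred (0.54 as deposited) and 0.36 to 0.59 with 1 array left out. Their median at 14 d against naive was 1.86 to 2.17 with 1 array left out. With 1 array left out, all genes called numbered 748 to 3733 at 3 d against naive, 765 to 3471 at 14 d against naive, 221 to 576 at 14 d against 3 d and 0 to 2 for aged against young (1 with trended and robust variances), and companion genes 23 to 44, 31 to 52 and 14 to 28 in the 3 time comparisons. Trended and robust variances called 34 companion genes at 14 d against 3 d. The aged minus young difference ran from -0.268 to 0.019 for Mfap4, -0.216 to 0.352 for Mrc1 and -0.081 to 0.277 for Aox3 with 1 array left out, and passed for none of the 7 in any alternative. Fewer arrays leave 1 residual degree of freedom, yet the numbers of genes called rose in some of these fits and fell in others. The causes of these shifts were not tested. No paired analysis was possible because each group has 1 array and the labels give no replicate numbers to pair by; age is a term of the fit and pairs the arrays only in that sense, and without it 259 genes were called at 14 d against 3 d, against 346 with it. Dim naive signals limit the sizes of the Aox3, Fndc1 and Mrc1 changes, and of listed genes below the filter in naive tissue.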

Other observations

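Some listed genes were about as high above naive at 3 d as at 14 d, or higher. Mfap4 and Fndc1 were not, but they had been chosen for a higher value at 14 d than at 3 d. The listed genes here were named after their values were seen. Fbn1, fibrillin-1, the core of microfibrils, was 1.54 above naive at 3 d and 1.56 at 14 d. Mgp, matrix Gla protein, was 1.55 above naive at 3 d. Cyp1b1, a cytochrome P450 of perivascular and meningeal fibroblasts, was 2.48 and 2.56 above naive. These fitted values average changes of opposite sign in the ages. From 3 d to 14 d Fbn1 changed by 0.42 in aged and by -0.39 in young rats. Mgp changed by 0.27 in aged and by -0.38 in young rats, and Cyp1b1 by 0.60 in aged and by -0.45 in young rats. Fbln2, fibulin-2, rose by 1.39 at 3 d and stood at 0.40 at 14 d, where it did not pass (limma's adjusted p = 0.217).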
